A study of Mus musculus with 6 samples.

Results

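Solitary injury-only peaks are stretches of DNA enriched for 5-hydroxymethylcytosine (5hmC) in ischemic brain. They stand alone, far from any stretch listed as enriched in control brain. They were chosen by position on chromosomes 1 to 19. A peak of the injury list was kept when its edges lay more than 10 kb from every peak of the control list and more than 5 kb from every other peak of the injury list. The rule kept 10070 of the 53341 autosomal injury-list peaks. The injury list held 53374 peaks in all and the control list 20583. The study compared brain tissue of C57BL/6 mice with ischemic injury (labelled I/R) with matched control brain, with 3 mice in each group. The labels used here give no age, sex, brain region or time after injury. The data were 1 list of enriched regions per group on the mouse mm9 genome, with a position and a score for each region and no values for single mice.

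5hmC is made when TET enzymes oxidise 5-methylcytosine, the common methyl mark of mammalian DNA. It is both a step towards removal of that mark and a stable base in its own right, and brain holds more of it than most tissues. In neurons it is known to be frequent in gene bodies and at enhancers and scarce at the start sites of active genes. In the hMe-Seal assay a modified glucose is attached to each 5hmC base, a biotin tag is added to the sugar, and the tagged fragments are captured and sequenced. A peak is therefore a region with many captured fragments, and peaks far from other peaks mark places where enrichment was found in isolation.

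The rule used the positions of both lists, and scores and widths come from the same reads as those positions. All values below are therefore descriptions of the solitary peaks, with no test. With 1 list per group there was no replicate error for any difference. The 95% intervals, which are exact Poisson for counts and densities, exact binomial for shares, exact conditional binomial for ratios of counts and order-statistic for medians, cover counting error only and treat peaks as independent. The read depth of both lists is unknown. No gene annotation or sequence of the mm9 build was used here, so regions are given by position, without gene names or bases.

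Solitary peaks made up 18.9% (18.5 to 19.2%) of the autosomal injury list and 14.4% of the bases it covers, 19.2 Mb in all. A further 9166 peaks (17.2%) also lay more than 10 kb from control peaks but had another injury-list peak within 5 kb, and these are called grouped peaks below. Peaks within 10 kb of a control peak without touching it numbered 15879 (29.8%), and 18226 (34.2%) overlapped a control peak. Of the 19236 peaks more than 10 kb from control peaks, 52.3% (51.6 to 53.1%) were solitary. At the 5 kb limit, injury-list peaks away from control peaks were thus divided about evenly between solitary and grouped ones. The split depends on that limit, with 13588 solitary peaks at 2 kb and 7062 at 10 kb. Control signal at these places was not examined, so absence from the control list is not absence of enrichment.

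Solitary peaks had the lowest scores of the 4 kinds of injury-list peak. The score, deposited by the authors with every peak, starts at 50 and is larger where the enrichment is statistically stronger. The median score was 68.7 (68.1 to 69.3) for solitary peaks, with quartiles of 57.6 and 90.3. It was 76.6 (75.9 to 77.5) for grouped peaks, 80.2 (79.6 to 80.9) for peaks within 10 kb of control and 140.0 (138.0 to 141.8) for peaks that overlapped control. The intervals of these 4 medians did not overlap. The solitary peaks were also the narrowest, with a median width of 1727 bp (1708 to 1743), compared with 1935 bp for grouped peaks, 1988 bp for peaks within 10 kb of control and 2578 bp for overlapping ones.

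**Figure D1:**
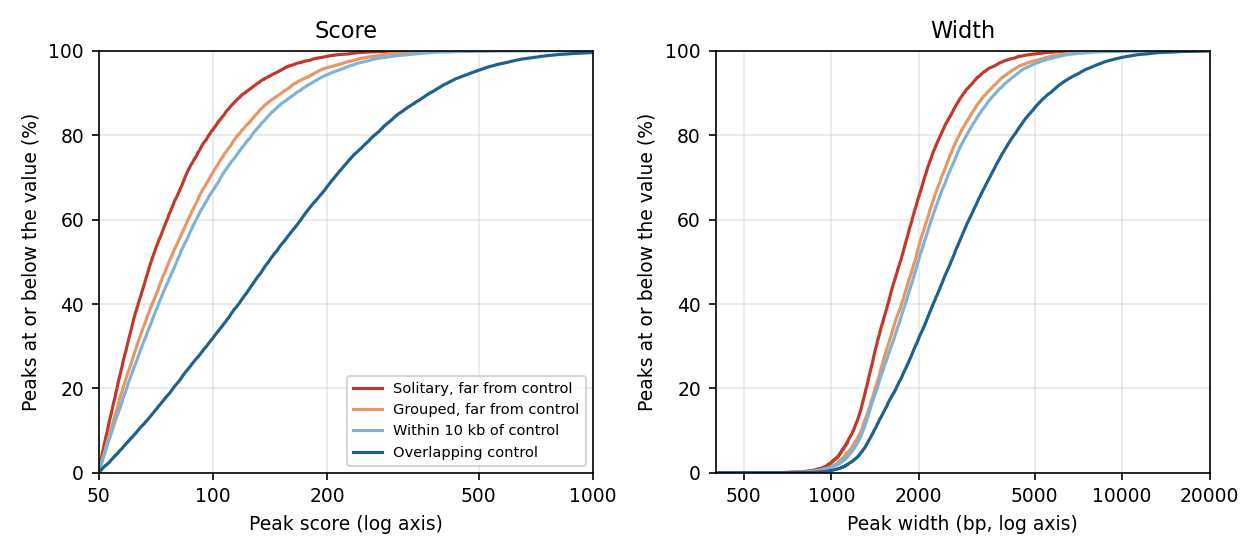
Cumulative share of peaks (%) at or below each score (left, log axis, drawn from 50 to 1000) and each width in bp (right, log axis, drawn from 400 to 20000 bp) for the 4 kinds of autosomal injury-list peak. The curve of the 10070 solitary peaks lies to the left of the other curves in both panels, with medians of 68.7 and 1727 bp.

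Much of the difference in width went with the difference in score. Within solitary peaks the rank correlation of score and width over the 10070 peaks was 0.52, which is a description of peaks that share their libraries. When the autosomal injury list was cut into 10 bins of equal size by score, solitary peaks were narrower than overlapping peaks in 5 of the 10 bins and wider in the other 5. In bin 5 (scores of 76.41 to 87.33) the medians were 1845 bp (1815 to 1882) for solitary and 1852 bp (1814 to 1883) for overlapping peaks. Against grouped peaks and against peaks within 10 kb of control, solitary peaks had the smaller median in all 10 bins. In bin 5 these were 1923 bp (1880 to 1974) for grouped peaks and 1942 bp (1906 to 1969) for peaks within 10 kb of control. At like scores, then, a solitary peak was about as wide as a peak shared with control and a little narrower than a peak with close neighbours.

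The share of solitary peaks was smaller in each successive score bin. They formed 31.8% (30.5 to 33.0%) of the lowest-scoring bin and 22.5% (21.4 to 23.6%) of bin 5. In the highest bin, at scores of 233.86 and more, only 61 of 5335 peaks were solitary (1.14%, 0.876 to 1.47%). Among peaks more than 10 kb from control the same order held, from 59.3% (57.4 to 61.1%) solitary in the lowest bin to 22.2% (17.4 to 27.6%) in the highest. The share of peaks overlapping control went the other way, from 12.8% to 84.9%. The depth of neither list is known, and its part in the number of solitary peaks was not tested.

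**Figure D2:**
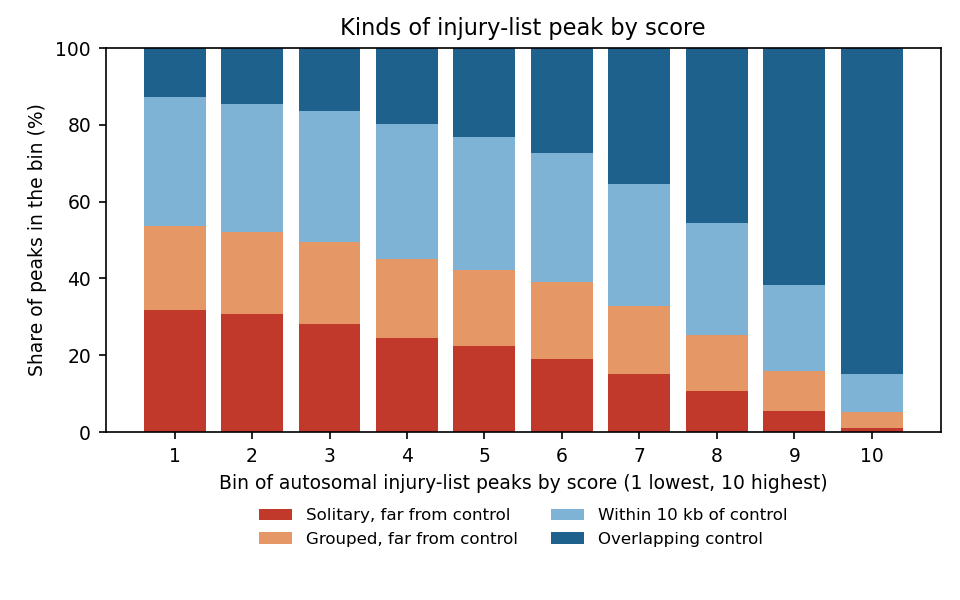
Share (%) of each kind of peak within 10 equal bins of the autosomal injury list ordered by score, from the lowest (1) to the highest (10), drawn as stacked bars. The solitary part is 31.8% of the lowest bin and 1.14% of the highest, where overlap with control reaches 84.9%.

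Most solitary peaks were narrow, and a minority were broad or high-scoring. Of all solitary peaks 62.97% were 1 to 2 kb wide and 26.3% were 2 to 3 kb, and 247 (2.45%) were under 1 kb. Peaks of 3 kb or more made up 8.29% of solitary peaks (835), against 23.3% of the autosomal injury list. Those of 5 kb or more numbered 77 (0.765%, 0.604 to 0.955%), against 6.11% of the autosomal injury list, and had a median score of 195.0. A score of 100 was reached by 1878 solitary peaks (18.6%, 17.9 to 19.4%) and a score of 200 by 131 (1.30%). Of all autosomal injury-list peaks, 22167 reached 100 and 7258 reached 200, and solitary peaks were 8.47% and 1.80% of these. Their share of the whole autosomal injury list was 18.9%. A score of 300 was reached by 11 solitary peaks (0.109%). The 11 are 0.349% (0.174 to 0.624%) of the 3151 autosomal injury-list peaks that reached 300. The control median score, 79.65, was reached by 3548 solitary peaks (35.2%) and by 30311 of all 53341 autosomal injury-list peaks. It served only as a threshold, since the depth of neither list is known.

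The 10 solitary peaks with the highest scores lay on 8 autosomes. The leading one, on chromosome 7 (75203925 to 75210088), was 6.16 kb wide and had a score of 479.59, which was rank 979 in the whole injury list. It lay in a peak-rich stretch, where 40 other peaks of the injury list and 11 of the control list lay within 150 kb of its centre, and its nearest injury-list neighbour, 6.04 kb away, scored 53.23. The second, on chromosome 4 (55020061 to 55028397), was 8.34 kb wide with a score of 456.48. It stood in emptier surroundings, where only 6 other peaks of the injury list and none of the control list lay within 150 kb, and the distance to the nearest control peak was 376.8 kb. These were the 2 solitary peaks with scores above 400.

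Chromosome 3 held the third and the fourth by score. The third (107247348 to 107251662, 4.32 kb, score 378.05) was 86.3 kb from the nearest control peak and 14.4 kb from the nearest injury-list peak. The fourth (130920169 to 130928149, 7.98 kb, score 362.59) was 11.97 kb from control, close to the 10 kb limit. The fifth, on chromosome 4 (128291209 to 128296248, 5.04 kb, score 346.28), was 10.6 kb from control, in a 1 Mb window with 55 control peaks. The 1 Mb window of the fourth held 8 control peaks. Both of these high scores therefore sat just beyond the 10 kb limit.

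The sixth to eighth lay on chromosome 5 (66780691 to 66786360, score 331.68), chromosome 2 (179583792 to 179590651, score 325.18) and chromosome 12 (118292974 to 118298446, score 324.53). Their distances to control peaks were 45.7 kb, 49.4 kb and 90.2 kb in that order. The ninth, on chromosome 1 (127986484 to 127990222, 3.74 kb, score 311.89), was the most isolated of the 10. It had no other peak of either list within 150 kb. Its nearest control peak was 184.8 kb away and its nearest injury-list peak 184.8 kb away as well, that neighbour being one that overlaps control peaks. The tenth, on chromosome 11 (61427548 to 61432805, score 311.23), was 37.0 kb from control and 14.9 kb from another injury-list peak. The nearest injury-list peaks scored from 50.05 (beside the chromosome 2 peak) to 125.97 (beside the chromosome 4 peak at 128.3 Mb). All scored lower than the solitary peak beside them, which the choice of the 10 by highest score largely fixed in advance.

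**Figure D3:**
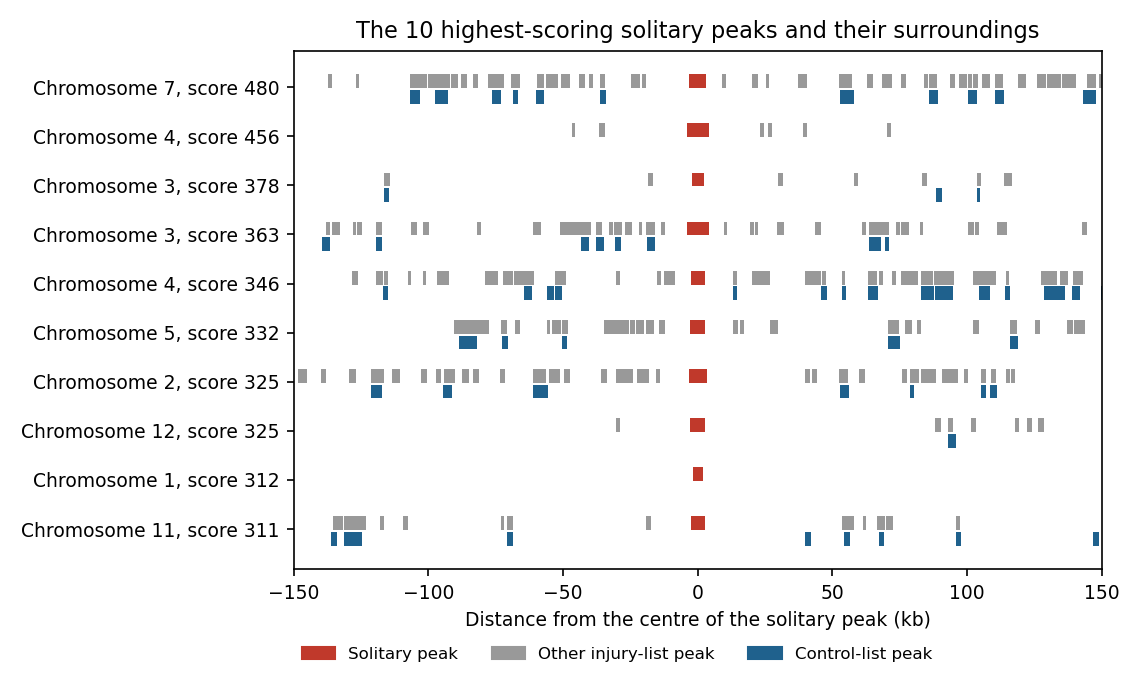
Surroundings of the 10 highest-scoring solitary peaks, drawn to scale as distance in kb from the centre of each, with the solitary peak in red, other injury-list peaks in grey and control-list peaks in blue below them. The peak on chromosome 1 with a score of 312 has no other peak within 150 kb, and the chromosome 7 peak with a score of 480 has 40 other injury-list and 11 control-list peaks.

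The widest solitary peak, on chromosome 12 (113607306 to 113617425), ran for 10.1 kb with a score of 274. It lay 24.0 kb from control in a 1 Mb window with 55 control peaks. The chromosome 4 peak of 8.34 kb came next, then one on chromosome 2 with 8.11 kb (38422130 to 38430243, score 188.24) and one on chromosome 16 with 8.03 kb (93012784 to 93020815, score 118.85). The chromosome 3 peak of 7.98 kb was the fifth. Width and score thus did not give the same leaders, since the chromosome 16 peak was at rank 17225 of the injury list by score.

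Distances to control peaks ran from 10.003 kb to 7.35 Mb. The median distance was 44.6 kb, the quartiles were 22.2 and 103.7 kb, and the middle 80% ran from 14.2 to 240.3 kb. Solitary peaks more than 100 kb from any control peak numbered 2596 (25.8%), and 137 (1.36%) were more than 1 Mb away. The control peak nearest to a solitary peak had a median score of 70.7 (70.2 to 71.5) on the scale of the control list, against 79.6 (78.8 to 80.3) for the autosomal control list and 77.3 (76.6 to 78.0) for the control peaks nearest to injury-list peaks within 10 kb. For grouped peaks it was 71.8 (71.0 to 72.4), an interval that overlaps the solitary one. These medians have 1 entry per injury-list peak, so a control peak nearest to several of them was counted several times. Their intervals treat such repeats as independent, while the autosomal control list counts each peak once. Counted in this way, the control peaks nearest to injury-list peaks of both far kinds scored lower than the control list as a whole.

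Solitary peaks became sparse with distance from control peaks. To allow for how much sequence lies at each distance, peaks were counted per Mb of sequence whose nearest control peak is that far away, between the outermost control peaks of each autosome. This sequence was counted whole, assembly gaps included. It came to 2060 Mb more than 10 kb from control peaks, 89.4% of all sequence between control peaks, and held 10048 solitary peaks, or 4.88 per Mb. At 10 to 20 kb there were 15.1 solitary peaks per Mb (14.4 to 15.7), at 50 to 100 kb 8.64 (8.27 to 9.03) and at 200 to 500 kb 2.41 (2.26 to 2.57). Beyond 1 Mb there were 0.289 per Mb (0.243 to 0.342).

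Among all injury-list peaks the gradient ran on both sides of the 10 kb limit. All injury-list peaks without control overlap had a density of 93.8 per Mb (90.7 to 97.0) within 1 kb of a control peak, 51.9 (50.4 to 53.3) at 5 to 10 kb, 39.1 (38.1 to 40.2) at 10 to 20 kb and 0.327 (0.278 to 0.383) beyond 1 Mb. The solitary share of these peaks was 38.5% (37.2 to 39.8%) at 10 to 20 kb, 58.4% (56.7 to 60.0%) at 50 to 100 kb and 88.4% (82.3 to 93.0%) beyond 1 Mb. A crowded stretch gives a peak more chances of a neighbour within 5 kb, so this share moves with the density by construction of the rule.

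**Figure D4:**
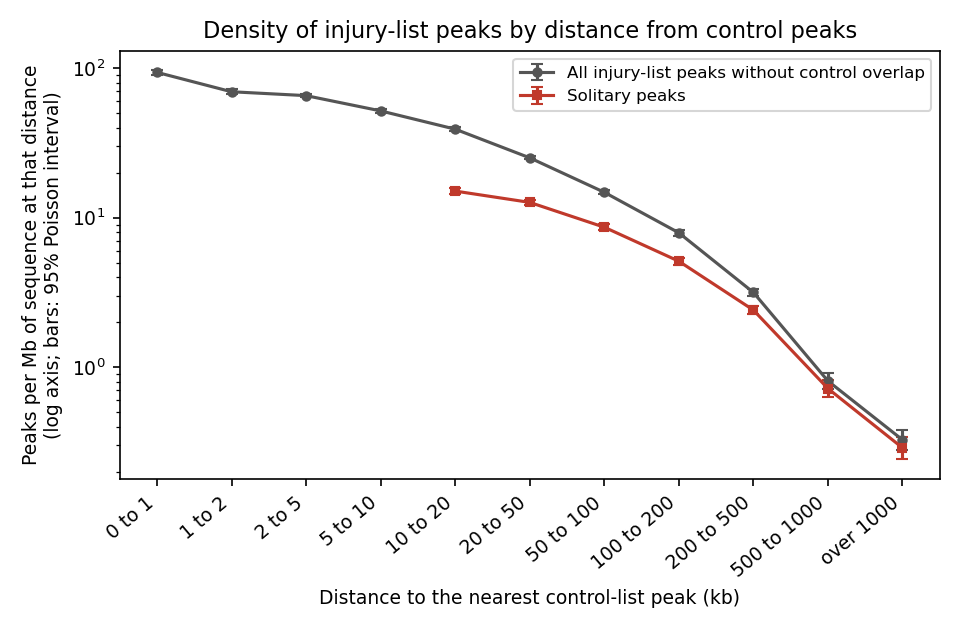
Peaks per Mb of sequence (log axis) at each distance in kb from the nearest control-list peak, for all injury-list peaks without control overlap (grey circles) and for solitary peaks (red squares), with 95% Poisson intervals. Solitary peaks go from 15.1 per Mb at 10 to 20 kb to 0.289 beyond 1000 kb, and all peaks without overlap go from 51.9 per Mb at 5 to 10 kb to 39.1 at 10 to 20 kb.

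Solitary peaks were 12.4 times (11.6 to 13.2) as dense 10 to 50 kb from control peaks as beyond 200 kb, with 13.5 against 1.09 per Mb. All 19 autosomes had this order, with ratios from 8.07 on chromosome 18 to 16.9 on chromosome 17. When only control peaks at or above the control median score were counted as control peaks the ratio was 6.54 (6.26 to 6.83), and with an injury list cut to its 20583 best-scoring peaks, the number in the control list, it was 30.1 (25.9 to 35.1). The ratio was above 1 under every alternative tried, and its size depended on which peaks were counted.

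Remote solitary peaks also scored lower and were narrower. The 5419 peaks at 10 to 50 kb had medians of 71.4 in score and 1798 bp in width, and the 1276 beyond 200 kb had 64.7 and 1559 bp. Both differences had the same direction on all 19 autosomes. The width difference was found at like scores too: in the lowest of the 10 score bins the medians were 1444 and 1337 bp, in bin 4 1759.5 and 1610 bp, and in bin 7 2257 and 2143.5 bp. Higher bins held few remote peaks. Bin 8 went the other way, with 2610.5 bp near and 2675.5 bp remote (54 remote peaks), and bins 9 and 10 rested on 20 and 4 remote peaks. Over single solitary peaks the rank correlation of score with distance to control was weak, at -0.09. Over grouped peaks it was -0.08. The median score of all injury-list peaks without control overlap was 76.2 at 10 to 20 kb and 64.8 beyond 1 Mb. Lower scores far from control were thus not particular to solitary peaks.

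The 5 solitary peaks farthest from control were small, except for the fifth. A run of 3 on chromosome 14 lay 7.35 Mb (87522419 to 87523922, score 65.21), 6.99 Mb (87161690 to 87162981, score 50.98) and 6.96 Mb (87134966 to 87135881, score 56.9) from the nearest control peak. The other 2 were on chromosome 4, at 6.96 Mb (73876658 to 73877982, score 50.09) and 4.67 Mb (69943665 to 69945751, score 114.19). Their widths ran from 0.916 to 2.09 kb. Of these 5, the last-named peak was the one with a score above 100 and a width above the solitary median of 1727 bp.

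Between neighbouring control peaks, 8647 stretches were longer than 20 kb and so could hold a solitary peak, and 4347 of them (50.3%) did. Of these, 2029 held 1 solitary peak, 983 held 2, and 291 held more than 5. Solitary peaks were found in 17.4% (16.1 to 18.7%) of stretches of 20 to 50 kb, 57.4% (55.2 to 59.5%) of those of 50 to 100 kb, and 84.3% (80.5 to 87.6%) of those over 1 Mb. Per Mb of sequence more than 10 kb from control, the order turned, with 16.8 solitary peaks (16.1 to 17.6) in stretches of 50 to 100 kb and 1.30 (1.23 to 1.36) in stretches over 1 Mb. Long stretches without control peaks therefore mostly held some solitary peak, but thinly.

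In 600 cases (5.96% of solitary peaks) the solitary peak was the only injury-list peak between the control peaks on either side. Their medians were 67.8 (65.7 to 71.3) in score and 1644 bp (1580 to 1714) in width, against 68.8 (68.2 to 69.4) and 1733 bp (1715 to 1750) for solitary peaks that shared their stretch with other injury-list peaks. The intervals of the scores overlapped and those of the widths did not. The highest score among these 600 was 201.79.

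The most solitary peaks in a single stretch was 15, reached by 3 stretches. The stretch on chromosome 7 (114838072 to 117006927, 2.17 Mb) held 22 injury-list peaks in all, and its solitary peaks scored 52.44 to 177.96 with a median of 59.9. The stretch on chromosome 15 (68793639 to 72816152, 4.02 Mb) held 35 injury-list peaks, and its solitary peaks scored 50.57 to 174.44. The stretch on chromosome 14 (104103777 to 106504719, 2.40 Mb) differed in that 15 of its 16 injury-list peaks were solitary, with scores of 51.02 to 94.66. Per Mb of the part of each stretch more than 10 kb from control peaks, the solitary peaks stood at 6.98, 3.75 and 6.30, in the order given.

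Solitary peaks were seldom isolated within the injury list itself. The nearest other injury-list peak was at a median of 15.4 kb, with quartiles of 8.91 and 32.3 kb, and for 29.9% (29.0 to 30.8%) of solitary peaks it lay within 10 kb. A distance of more than 100 kb was found for 733 (7.28%), and 39 were more than 1 Mb from any other injury-list peak. Median scores were 71.3 (69.9 to 72.7) with a neighbour at 5 to 10 kb and 65.6 (64.1 to 67.0) with none within 100 kb. A total of 647 solitary peaks had no peak of either list within 100 kb.

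The nearest injury-list peak of a solitary peak was most often another solitary peak, in 5489 cases (54.5%, 53.5 to 55.5%). Of these, 3690 formed 1845 pairs in which each was the nearest peak of the other. The nearest peak was a grouped one in 16.6%, one within 10 kb of control in 13.7% and one overlapping control in 15.1%. The rule shapes these shares, because it keeps solitary peaks away from control peaks and so from the injury-list peaks beside them. The control list was nearer than the injury list for 1451 solitary peaks (14.4%).

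The 5 solitary peaks farthest from other injury-list peaks were on 5 autosomes. On chromosome 1 (145616885 to 145619411, score 76.29) the nearest injury-list peak was 4.07 Mb away, while a control peak lay at 74.4 kb. On chromosome 4 the peak at 73.9 Mb named above was 3.93 Mb from its neighbour. On chromosome 3 (46249594 to 46251587, score 142.42) the nearest injury-list and control peaks were 3.85 and 3.27 Mb away. On chromosome 5 (14223055 to 14224515, score 54.37) they were 3.59 and 0.961 Mb away. On chromosome 13 (78350458 to 78352313, score 94.15) the injury-list neighbour was 3.53 Mb away and a control peak 15.2 kb. The chromosome 1 and chromosome 13 peaks were thus lone in the injury list but had control peaks within 100 kb.

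Solitary peaks were widely spread over the genome. Of the 2386 autosomal windows of 1 Mb between the outermost peaks, 1823 held a peak of either list, and 1676 of these (91.9%) held a solitary peak, with a median of 5 and a maximum of 22 per window. The 147 windows with peaks but no solitary one were mostly poor in peaks, since 125 of them held 1 to 4 control peaks and 9 held none. Of the 147, 60 held no injury-list peak and so could hold no solitary one. The 790 windows with no control peak, those without any peak included, held on average 0.605 solitary peaks (0.552 to 0.662), windows with 10 to 19 control peaks 8.66 (8.34 to 8.99), and windows with 40 or more 5.56 (5.13 to 6.02). The number per window was thus highest at intermediate control density. These counts were not divided by the sequence more than 10 kb from control peaks. A window with many control peaks has less such sequence, so the rule itself limits the number there. The part of the injury list that was solitary went one way, from 78.4% (74.9 to 81.6%) in windows without control peaks to 5.05% (4.66 to 5.45%) in those with 40 or more. Of all solitary peaks 4.75% (4.34 to 5.18%) lay in windows with no control peak, compared with 1.36% (1.14 to 1.62%) of grouped peaks.

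Among autosomes the solitary share of the injury list ran from 13.1% (12.1 to 14.1%) on chromosome 4 to 29.6% (27.5 to 31.8%) on chromosome 13. Chromosome 3 (27.9%), chromosome 6 (25.6%) and chromosome 14 (25.0%) followed. The intervals of chromosomes 3, 6 and 14 overlapped one another, and that of chromosome 13 overlapped the interval of chromosome 3 alone. Chromosome 11 (14.7%), chromosome 15 (14.9%), chromosome 17 (14.98%) and chromosome 5 (15.5%) were next to chromosome 4 at the low end, and of these only chromosome 5 had an interval (14.4 to 16.6%) clear of that of chromosome 4. Over the 19 autosomes this share had a rank correlation of -0.94 with the number of control peaks per Mb. The share of sequence more than 10 kb from control peaks, which the rule depends on, ran from 78.3% on chromosome 11 to 92.6% on chromosome 3.

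Measured per Mb of the sequence far from control, the autosomes came in another order. Chromosome 11 had the most solitary peaks, 6.69 per Mb (6.17 to 7.24), followed by chromosome 9 with 6.23 (5.75 to 6.73) and chromosome 17 with 6.01 (5.46 to 6.61), and these 3 intervals overlapped. Chromosomes 13 and 4, the extremes by share, were close to each other at 4.89 (4.48 to 5.33) and 4.63 (4.26 to 5.03). Chromosome 16 had the fewest, 3.78 (3.38 to 4.22), with chromosome 1 at 3.88 (3.60 to 4.19). The rank correlation with control peaks per Mb was 0.75 over the 19 autosomes. Chromosome 9 stood above autosomes of like control density, such as chromosome 2 with 5.15 (4.80 to 5.52). Median scores differed little between autosomes, from 66.2 on chromosome 16 to 72.3 on chromosome 12, and chromosome 16 also had the smallest median width, 1587 bp.

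**Figure D5:**
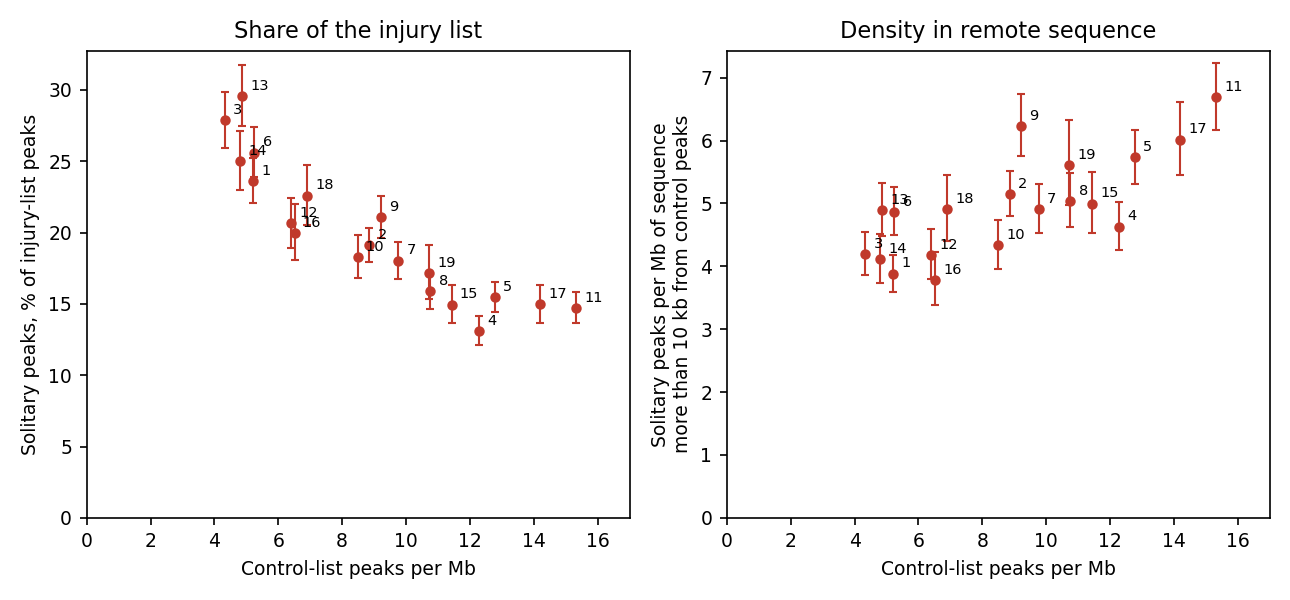
Solitary peaks on each of the 19 autosomes (points numbered by chromosome, bars 95% intervals) against control-list peaks per Mb, as a share of injury-list peaks in % (left) and per Mb of sequence more than 10 kb from control peaks (right). The share is highest on chromosome 13 (29.6%) and lowest on chromosome 4 (13.1%), and the density is highest on chromosome 11 (6.69 per Mb).

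Along the chromosomes, solitary peaks were more frequent towards the end with the highest coordinates. With each autosome cut into 10 equal segments between its outermost injury-list peaks, the last segment held 16.7% (16.0 to 17.4%) of solitary peaks and the first 6.88% (6.39 to 7.39%). The injury list as a whole was more unequal, and the solitary share of its peaks was 14.1% (13.4 to 14.7%) in the last segment and 22.3% (20.9 to 23.8%) in the first. The highest solitary share, 23.6% (22.3 to 24.9%), was in segment 4.

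The same rule with the lists exchanged gave 1231 control-list peaks, 5.99% (5.67 to 6.32%) of the 20555 autosomal control-list peaks. The injury list thus held 8.18 times (7.71 to 8.69) as many solitary unmatched peaks as the control list. Of control-list peaks more than 10 kb from injury-list peaks, 92.5% (90.9 to 93.8%) were solitary, against 52.3% in the injury list. The control list was shorter, with 20555 against 53341 autosomal peaks. A sparser list leaves fewer neighbours within 5 kb by construction of the rule, so these shares do not compare the groups. The 8.18-fold excess depended on which peaks were counted. In an injury list cut to its 20583 best-scoring peaks the order turned. It had 2904 solitary peaks, against 3884 solitary control peaks (ratio 0.748, 0.712 to 0.785). This cut removed the lowest-scoring injury peaks, while the control list kept its peaks from a score of 50 up. Of the 2904 peaks, 1599 were among the 10070 described here. The part of list length alone was not tested. With only injury-list peaks at or above the control median score the counts were 5136 and 2598 (ratio 1.98, 1.89 to 2.07). With the same threshold on the control list alone they were 13002 and 344 (ratio 37.8, 34.0 to 42.2). Each on the scale of its own list, the solitary control peaks had a median score of 62.7 (list median 79.6) and the solitary injury peaks 68.7 (list median 87.3). Median widths were 1898 bp (list median 2655 bp) and 1727 bp (list median 2056 bp), so solitary peaks scored lower and were narrower than their list in both groups.

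Peaks just inside and just outside the limits had band medians with overlapping intervals, while single peaks varied. The 3 solitary peaks nearest to control lay 10.003, 10.017 and 10.023 kb away, on chromosomes 5, 2 and 15, and scored 93, 132.62 and 89.28. The 3 otherwise similar peaks left out by least lay 9.996, 9.996 and 9.988 kb away, on chromosomes 18, 12 and 8, and scored 64.49, 61.93 and 90.4. The 292 solitary peaks at 10 to 11 kb had a median score of 74.3 (69.8 to 78.9), and the 274 equally spaced peaks at 9 to 10 kb 70.6 (66.8 to 73.7). At the 5 kb limit the nearest solitary peaks, at 5.001, 5.002 and 5.004 kb, scored 69.33, 60.86 and 83.12. Those left out at 4.999 kb, and as a pair 4.995 kb apart, scored 74.43, 53.63 and 53.48. The 754 solitary peaks with a neighbour at 5 to 6 kb and the 922 peaks with one at 4 to 5 kb had medians of 72.4 (69.9 to 74.9) and 71.8 (69.2 to 73.8).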

How the data were processed

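5hmC was captured from brain DNA of 6 mice, 3 per group, by hMe-Seal, per the labels' protocols. CASAVA 1.4, Bowtie 0.12.9, MACS 1.4.2 and build mm9 are named in the submitters' processing notes, without settings. For each group the authors deposited a single list of peaks, and its score is read here as -10 times the base-10 logarithm of the MACS p-value. Pooling of mice, use of an input library and read numbers: not given in the sources used here. Since more reads can give more peaks and higher scores, medians of scores were compared within a list, and the control median score was used across lists only as a threshold.

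Distances were counted in bases between edges and positions are printed counting from 1. The tools were scipy 1.17.1, numpy 2.4.6, pandas 2.3.3 and, for plots, matplotlib 3.10.9, under Python 3.11.15. The distance functions, tested on simulated peaks, placed 100% of 250 planted peaks in the right kind. Peaks named are the 10 highest-scoring solitary peaks, the 5 widest, the 5 farthest from control and from injury-list peaks, 3 on each side of each limit, and the 3 stretches with most solitary peaks, with ties broken by score. The members and lists were chosen with earlier results of these data known. Annotation and sequence were planned only for an mm9 reference and were not analysed here.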

Additional observations from a re-analysis of the deposited data

How the results depend on the processing

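Alternatives that change the limits or the lists moved most values by more than counting error, and the cause was not tested beyond what each alternative leaves in. The number of solitary peaks stayed within 1.5 times 10070 except at a control limit of 50 kb (4642), with injury-list peaks that reach the control median score (5136) and in an injury list cut to its 20583 best-scoring peaks, the number in the control list (2904, called reduced). Of the 10070 peaks, 3548 were kept at the control median score and 1599 in the reduced list. The share of the injury list was 21.8%, 14.9% and 8.70% at control limits of 5, 20 and 50 kb, 25.5% and 13.2% at neighbour limits of 2 and 10 kb, 26.3% after merging peaks within 1 kb, 16.9% when injury-list peaks had to reach the control median score, 24.4% when control peaks had to, and 14.1% in the reduced list. Median scores were 66.5 (50 kb), 69.8 and 67.9 (2 and 10 kb), 70.3 (merging), 102.9 (injury threshold), 71.3 (control threshold) and 132.4 (reduced). Median widths were 1707 and 1636 bp (20 and 50 kb), 1763 and 1676 bp (2 and 10 kb), 1791 bp (merging), 2223 bp (injury threshold), 1764 bp (control threshold) and 2667 bp (reduced). The share in windows without control peaks was 4.13%, 6.03% and 10.2% (5, 20 and 50 kb), 3.87% and 5.95% (2 and 10 kb), 3.10% (injury threshold), 12.6% (control threshold), 2.69% (reduced), and 10.3% and 1.74% in windows of 500 kb and 2 Mb. The highest autosome exceeded the lowest 2.89 times in number of solitary peaks, 1.56 times per Mb, 2.26 times per injury-list peak, 1.27 times per peak far from control and 1.77 times per Mb far from control. This last denominator, the near-to-remote density ratio and the alternatives for exchanged lists were chosen after seeing the data. That ratio was 16.3 and 8.61 at neighbour limits of 2 and 10 kb, 22.5 at the injury threshold, 6.54 at the control threshold and 30.1 in the reduced list. Exchanged lists gave 2598 solitary control peaks at the injury threshold, 344 at the control threshold and 3884 with the reduced injury list. No paired analysis was possible because peaks were deposited per group, without values for single mice, so leaving out a mouse was not possible either.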

Other observations

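The X chromosome lies outside the rule. By the same distances 24 of its 33 injury-list peaks and 16 of its 28 control-list peaks were solitary and unmatched. On the autosomes these were 10070 of 53341 and 1231 of 20555. So few peaks leave little chance of a neighbour within 5 kb or a match within 10 kb, and no interval of the X shares was computed.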
